A study of Mus musculus with 6 samples.

Results

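Apelin and endothelin signaling in the infarcted mouse heart was followed through 6 genes: the ligand genes Apln and Edn1, the endothelin-converting enzyme gene Ece1, and the receptor genes Aplnr, Ednra and Ednrb. The 6 were chosen by symbol, each symbol matched 1 row of the deposited count tables, and all 6 were found among 32285 genes. For each gene the unique molecular identifiers (UMIs, 1 per captured RNA molecule) were summed over the cells of a type in a library.

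Apelin is a secreted peptide that signals through the G protein-coupled receptor encoded by Aplnr, and in the vessel wall it is known as a ligand of sprouting endothelial tip cells that relaxes vessels and supports cardiac contraction. Endothelin-1 is made as an inactive precursor that the endothelial protease Ece1 cleaves to the active peptide. Its receptor ETA (Ednra) on smooth muscle and pericytes constricts vessels, and its receptor ETB (Ednrb) on endothelium releases nitric oxide and clears the peptide.

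The study measured single-cell RNA (10x Genomics, 3′ ends) in the cells of the ventricles other than cardiomyocytes, from male mice of 8 to 12 weeks. Wild-type mice (WT, strain C57BL/6JRj) and mice lacking the calcium-activated cation channel gene Trpm4 (KO, strain B6.Cg-Trpm4tm1.2-PG) had either a sham operation or the LAD, a main coronary artery of the left ventricle, tied off to cause a myocardial infarction. Sham hearts were taken at 24 h and ligated hearts at 24 h or 72 h, which gives 6 groups, and no sham group at 72 h was analysed here. Ventricles were digested with thermolysin and papain, passed through meshes that hold back cardiomyocytes, and sorted as live cells by Calcein-AM and DAPI. Each group is 1 library of cells pooled from 4 mice, so no spread between mice could be measured and no group was tested against another; a genotype effect common to the 3 conditions was not fitted. Every interval given is an exact 95% interval that covers counting error only.

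The 6 libraries held 3625 to 7286 deposited cells and 20995280 to 45649061 UMIs each. After filtering, 32085 of 34940 cells were kept, with a median of 3076 to 8011 UMIs per cell in 5 libraries and 1351 in KO ligation 72 h, the shallowest. The libraries shared 118 barcodes. Trpm4 itself had 305, 128 and 196 UMIs in the sham, 24 h and 72 h ligation libraries of WT, and 215, 140 and 54 in the matching KO libraries. That is 8.79, 5.52 and 4.29 CPM (UMIs of the gene per 1000000 UMIs of the library, or below of the class in the library) in WT against 6.20, 3.46 and 2.57 in KO. The KO level was lower at each condition but not absent, and whether the 3′ tag lies in the deleted part was not tested. Cell types are "like" types named from clusters by marker genes, without the 6 genes among the genes used for clustering; the suffix is left out below. Of 36 clusters, 4 stayed unnamed (827 cells), and the others formed 14 classes.

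All 6 genes are protein coding. On mouse build GRCm38 (GENCODE M21), Apln (ENSMUSG00000037010) lies at chrX:48025146-48034853 on the minus strand and Aplnr (ENSMUSG00000044338) at chr2:85136225-85139923 on the plus strand. Edn1 (ENSMUSG00000021367) lies at chr13:42301476-42307990 and Ece1 (ENSMUSG00000057530) at chr4:137862237-137965229, both on the plus strand. Ednra (ENSMUSG00000031616) lies at chr8:77663031-77724464 and Ednrb (ENSMUSG00000022122) at chr14:103814625-103844402, both on the minus strand. A 3′ count does not tell apart the transcripts of a gene, which matters most for Ece1 with its 4 RefSeq starts.

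The bases before the starts of the ligand genes Apln and Edn1 are shown because these are the members past 2-fold higher against sham in WT endothelium after ligation. They are 250 bases each from RefSeq (GRCm38.p6), 5′ to 3′ on the gene's own strand, at chrX:48034854-48035103 for Apln and chr13:42301226-42301475 for Edn1. Capitals mark each match to the core letters bound by Kruppel-like factors, CACCC, here in their reverse form GGGTG.
Apln: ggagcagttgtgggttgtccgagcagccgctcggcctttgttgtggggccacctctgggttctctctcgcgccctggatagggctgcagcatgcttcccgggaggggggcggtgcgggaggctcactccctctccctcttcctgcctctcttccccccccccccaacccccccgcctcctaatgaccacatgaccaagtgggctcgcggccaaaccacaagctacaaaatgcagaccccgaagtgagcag
Edn1: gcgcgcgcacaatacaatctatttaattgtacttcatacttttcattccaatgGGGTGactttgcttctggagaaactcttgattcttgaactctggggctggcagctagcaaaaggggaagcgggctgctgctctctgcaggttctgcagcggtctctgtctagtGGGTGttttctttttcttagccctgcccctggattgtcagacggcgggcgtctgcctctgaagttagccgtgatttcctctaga

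In Edn1 the matches begin at -197 and -84 counted from the start, and the next 50 bases hold a further GGGTG at 34. A CACCC on either strand is common, present in 57.5% of 32851 RefSeq windows of the same 300 bases. The core of the hypoxia response element, ACGTG on either strand, was found in 19.6% of windows, and Edn1 has it in reverse (CACGT) at 22. The GATA motif AGATAA (11.2% of windows) is in Edn1 in reverse (TTATCT) at 9, and the AP-1 motif TGANTCA (7.81% of windows) is not in it. The Apln window held none of the 4 motifs in these letters. Of the receptors with a window, Ednrb held CACCC at -95 and -76 and GGGTG at 27, and Ednra held none of the 4.

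**Figure D1:**
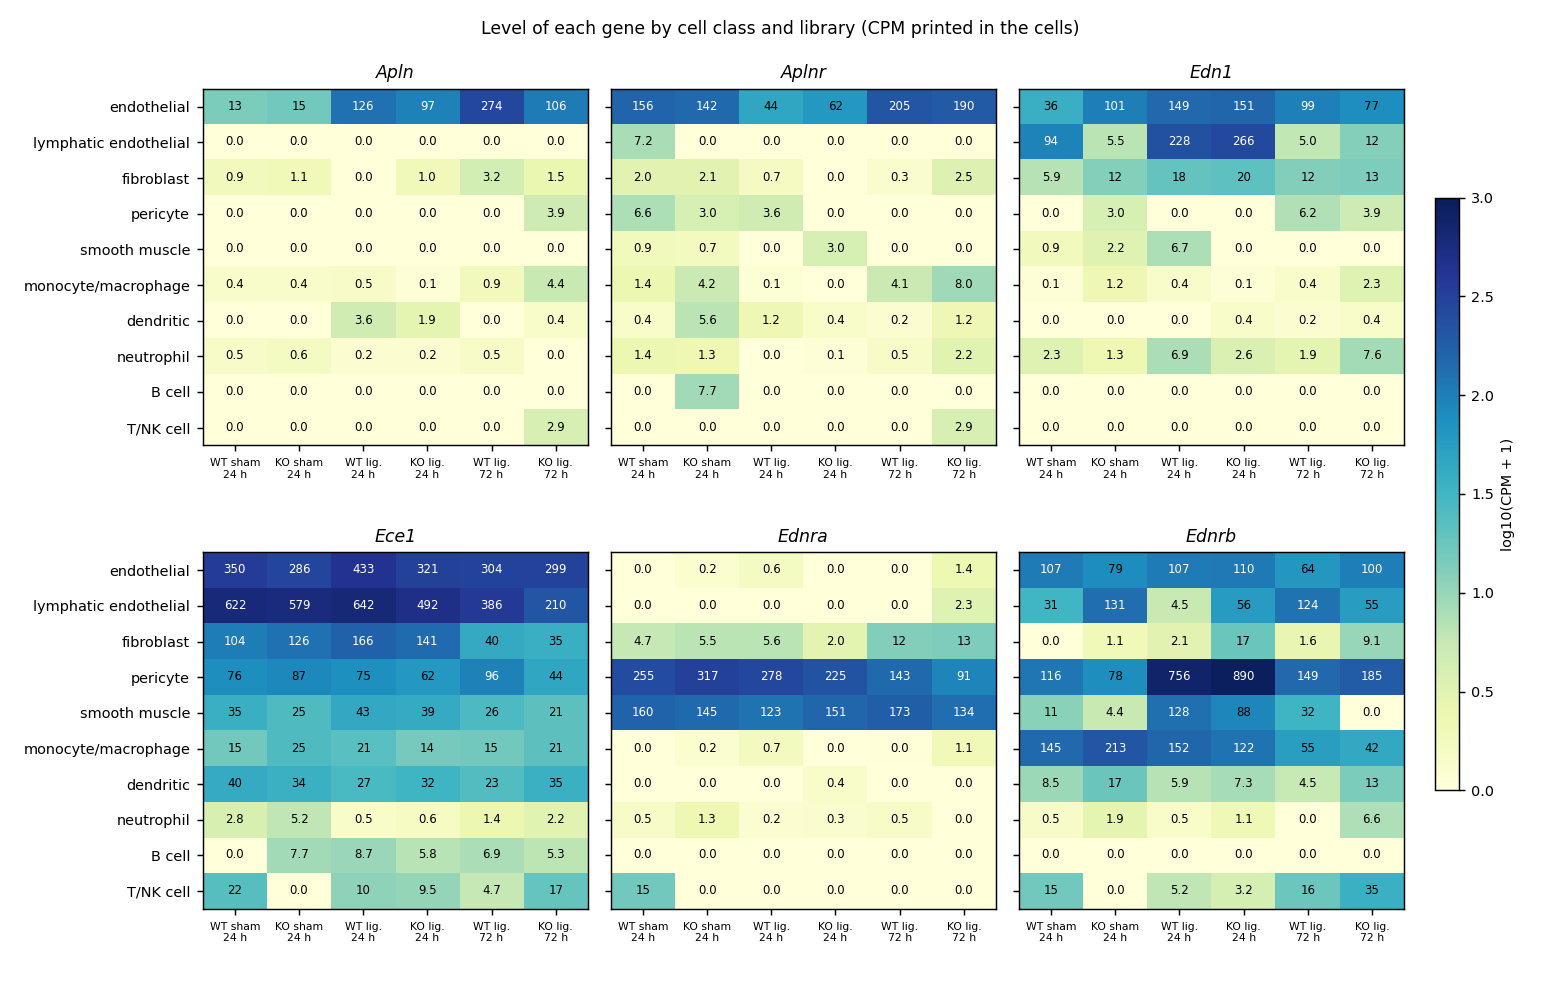
Level of each of the 6 genes (CPM, printed in each cell; colour is log10 of CPM + 1) in 10 cell classes, rows, and the 6 libraries, columns. Apln and Aplnr stand in the endothelial row, Ednra in the pericyte and smooth muscle rows, and Ednrb in several rows.

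Each of the 6 genes was highest in endothelial cells, lymphatic endothelial cells or pericytes, several of them in the same class. Apln was highest in endothelial cells, with a median over the 6 libraries of 101 CPM (range 12.8 to 274), and it had 0 UMIs in lymphatic endothelial and in smooth muscle cells over the 6 libraries, which allows up to 3 in each. Aplnr was likewise highest in endothelial cells (median 149 CPM, range 44.4 to 205). The ligand and its receptor were thus read in the same class. For both the next class was a cluster led by hemoglobin genes, at 17.1 CPM (8.59 to 98.2) for Apln and 95.9 CPM (10.4 to 190) for Aplnr, and its range overlapped the endothelial one. That cluster of 1012 barcodes also held all 9 endothelial markers in every library, summing to 8822 to 40361 CPM, and in WT ligation 24 h its 6 erythroid markers summed to 17.9 CPM. Adding it to the endothelial class left the Apln ratio of ligation 24 h to sham at 3.25 on the log2 scale in WT against 3.31 without it.

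Edn1 was highest in endothelial cells (median 99.7 CPM, 35.7 to 151), then lymphatic endothelial cells (52.6 CPM, 4.95 to 266), whose range spans the endothelial one and where 1 cell held 41.0% of the UMIs in WT sham, 49.0% in WT 24 h and all 33 in KO 24 h, then fibroblasts (12.1 CPM, 5.85 to 19.7). Ece1 was highest in lymphatic endothelial cells (536 CPM, 210 to 642), then endothelial cells (312 CPM, 286 to 433), with overlapping ranges. The lymphatic class had 40 and 26 cells in WT and KO sham, 17 and 15 at 24 h, and 16 and 171 at 72 h. Its place in both orders therefore rests on few cells in most libraries. Fibroblasts (115 CPM, 35.3 to 166) and pericytes (75.5 CPM, 44.4 to 96.4) followed and overlapped each other. Ednra was highest in pericytes (240 CPM, 90.8 to 317) and smooth muscle cells (148 CPM, 123 to 173), which overlapped, and both lay above fibroblasts (5.55 CPM, 1.97 to 12.6). Ednrb was the most widespread receptor gene, at 167 CPM in pericytes, 133 CPM in monocytes and macrophages and 104 CPM in endothelial cells, all with overlapping ranges. The 2 endothelin receptor genes therefore met in pericytes, and endothelial cells had 6 UMIs of Ednra in all 6 libraries together.

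Neutrophils were read as a background class. For Edn1 they are a weaker one, as its level there reached 7.64 CPM, within the fibroblast range of 5.85 to 19.7 CPM. Its neutrophil log2 ratio of KO to WT at ligation 24 h was -1.40 (-1.61 to -1.05 under alternative processing). In that comparison 1.72% of genes were at least 2-fold higher and 1.31% lower. At most 0.149% of neutrophils in a library had an Apln UMI, at most 0.419% an Aplnr UMI, 0.297% to 1.34% an Edn1 UMI, at most 0.297% an Ednra UMI and at most 1.26% an Ednrb UMI. Their median depth was 1934 to 3163 UMIs per cell, against 2014 to 4192 in endothelial cells.

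Apln was higher in endothelial cells 24 h after ligation in both genotypes, and higher again at 72 h in WT. The endothelial class had 108 and 183 Apln UMIs in WT and KO sham, 392 and 219 at 24 h after ligation, and 422 and 78 after 72 h. As levels that is 12.8 and 14.99 CPM in sham, 126 and 97.1 CPM at 24 h, and 274 and 106 CPM at 72 h. All 4 ligation libraries were above both sham libraries, and WT ligation 72 h was the highest. The ratio of ligation 24 h to sham was 9.89 in WT (7.97 to 12.3) and 6.47 in KO (5.30 to 7.92). This call rests on where the angiogenic endothelial cells described below are placed: with most of them outside the class, at clustering resolution 0.5 and with doublets kept, the log2 ratio was 0.33 and 0.39 in WT and 1.15 and 0.57 in KO. From 24 h to 72 h the ratio was 2.17 in WT (1.89 to 2.499) and 1.09 in KO (0.830 to 1.42), so the KO interval includes no difference. On the log2 scale that is 1.12 and 0.12. Under alternative processing it went as low as 0.31 in WT, under 2-fold, and -1.45 in KO. The share of endothelial cells with an Apln UMI was 2.28% and 2.44% in sham, 10.97% and 9.19% at 24 h, and 22.1% and 8.44% at 72 h. With every cell thinned to 1000 UMIs the shares were 0.984% and 0.852%, 5.27% and 4.29%, and 10.3% and 4.10%, in the same order.

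Aplnr, which encodes the apelin receptor, moved the other way at 24 h. Its endothelial UMIs were 1322 and 1738 in WT and KO sham, 138 and 139 after ligation for 24 h, and 315 and 140 after 72 h. The levels were 156 and 142 CPM in sham, 44.4 and 61.6 CPM at 24 h, and 205 and 190 CPM at 72 h. Both 24 h libraries were the lowest of the 6, and both 72 h libraries were the highest. The 72 h lead over sham was small, with a log2 ratio of 0.39 in WT and 0.41 in KO. It changed sign under alternative processing, from -0.26 to 0.55 in WT and from -0.95 to 1.22 in KO. Against sham the 24 h level was 0.284-fold in WT (0.237 to 0.339) and 0.433-fold in KO (0.361 to 0.515). Between 24 h and 72 h it was 4.61-fold higher in WT (3.76 to 5.67) and 3.08-fold in KO (2.42 to 3.92). Cells with an Aplnr UMI made up 32.0% and 31.3% of endothelial cells in sham, 14.6% and 13.9% at 24 h, and 35.1% and 17.7% at 72 h.

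Edn1, the endothelin-1 gene, was past 2-fold higher 24 h after ligation in WT and less than 2-fold higher in KO, where the sham level already stood above WT sham. Its endothelial UMIs were 302 and 1228 in WT and KO sham, 462 and 340 at 24 h, and 152 and 57 at 72 h. Levels were 35.7 and 101 CPM in sham, 149 and 151 CPM at 24 h, and 98.8 and 77.2 CPM at 72 h. WT sham was the lowest library, and KO sham lay close to WT ligation 72 h. The ratio of 24 h to sham was 4.17 in WT (3.60 to 4.83) and 1.498 in KO (1.32 to 1.69). These ratios are of the whole class, whose clusters differed in share between sham and 24 h. In KO cluster 0, described below, the level was 59.2 CPM in sham and 48.5 CPM at 24 h, with overlapping intervals. The ratio of 72 h to 24 h was 0.664 in WT (0.549 to 0.799) and 0.513 in KO (0.380 to 0.680), lower at 72 h in both genotypes. This direction turned with doublets kept, at 1.12 on the log2 scale in WT and 0.090 in KO, and in WT at clustering resolution 0.5, at 0.96. In KO ligation 72 h, 1 cell held 28.1% of the Edn1 UMIs.

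Ece1 and Ednrb stayed within 2-fold in endothelial cells across these comparisons. Ece1, the enzyme that activates endothelin-1, was at 350 and 286 CPM in WT and KO sham, 433 and 321 CPM at 24 h, and 304 and 299 CPM at 72 h. Its 24 h to sham ratio was 1.24 in WT (1.16 to 1.32) and 1.12 in KO (1.04 to 1.22). Ednrb was at 107 and 79.0 CPM in sham, 107 and 110 CPM at 24 h, and 64.3 and 100 CPM at 72 h. Its ratio was 0.997 in WT (0.876 to 1.13) and 1.39 in KO (1.20 to 1.60).

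**Figure D2:**
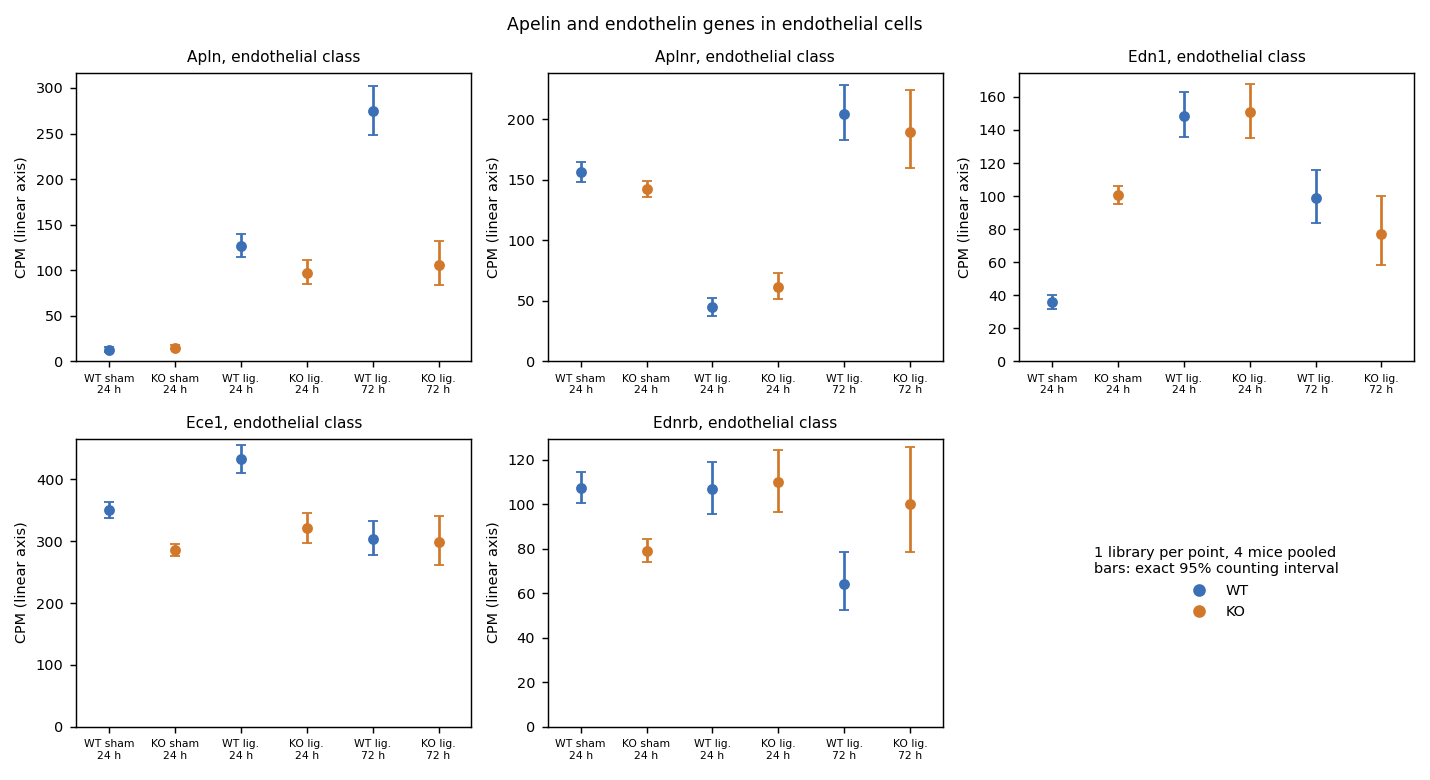
Endothelial level of 5 genes (CPM, linear axis) in each library, blue for WT and orange for KO, with exact 95% counting intervals; each point is 1 library of 4 pooled mice. Apln stands highest at 72 h in WT (274 CPM), Aplnr is lowest in both 24 h ligation libraries (44.4 and 61.6 CPM), and Edn1 is lowest in WT sham (35.7 CPM).

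Counted against the whole transcriptome, 3 of the 5 members measured in WT endothelial cells were past 2-fold at 24 h against sham, Apln and Edn1 higher and Aplnr lower. Of the 9971 genes measured there, 3.62% were at least 2-fold higher and 2.46% at least 2-fold lower. In KO the members past 2-fold were Apln and Aplnr, where 3.72% of 10184 genes were higher and 1.81% lower. From 24 h to 72 h Apln and Aplnr were past 2-fold in WT (3.45% of genes higher, 7.52% lower) and Aplnr alone in KO (3.55% higher, 5.28% lower). At 72 h against sham Apln and Edn1 were past 2-fold in WT, at 21.5-fold (17.3 to 26.8) and 2.77-fold (2.26 to 3.37), with 6.67% of genes higher and 10.7% lower. On the log2 scale these were 4.42 and 1.47. Under alternative processing they went as low as 1.31 and 0.80, the latter under 2-fold. In KO Apln alone was past 2-fold, at 7.05-fold (5.34 to 9.24), with 8.24% higher and 8.63% lower. This KO ratio turned to -0.30 and -0.54 on the log2 scale at resolution 0.5 and with doublets kept. Comparisons of 1 genotype share their sham or 24 h library and are not independent.

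Other RNA in the endothelial class also differed between libraries. Its 9 endothelial markers, all detected in each, summed to 34329, 37377, 41006 and 35796 CPM in WT sham, KO sham, WT 24 h and KO 24 h, and to 20480 and 16897 CPM in WT and KO at 72 h. The monocyte and macrophage markers summed to 78.6 to 166 CPM in the first 4 and to 645 and 2587 CPM at 72 h, and the hemoglobin-led markers to 2337 and 4315 CPM in sham against 10.4 to 52.8 CPM after ligation. Without cells holding markers of other classes the log2 ratio of 24 h to sham in WT was 4.08 for Apln and 1.54 for Edn1. Among all cells with a UMI of both Pecam1 and Cdh5, genes of endothelial junctions, the log2 ratio of 24 h to sham was 3.10 for Apln, -1.87 for Aplnr and 2.07 for Edn1 in WT, and 2.72, -1.25 and 0.75 in KO.

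Within the endothelial class, most Apln UMIs after ligation came from 1 cluster. Cluster 17 had 5 of the 8 markers set for angiogenic endothelium, with Pgf and Trp53i11 among its leading genes. Against the other endothelial clusters its leading genes also included the heat shock genes Hspa1a and Hspa1b. The cluster is called angiogenic below. It held 57 of the class's 108 Apln UMIs in WT sham and 102 of 183 in KO sham, 366 of 392 and 194 of 219 at 24 h, and 411 of 422 and 76 of 78 at 72 h. Over all kept cells of a library Apln had 122 and 201 UMIs in sham, 414 and 246 at 24 h, and 467 and 186 at 72 h, so in KO 72 h the endothelial class held 41.9% of them, the hemoglobin-led cluster 26.3% and monocytes and macrophages 24.2%. The whole-library level was 3.98 and 6.497 CPM in sham, 19.1 and 6.68 CPM at 24 h, and 10.9 and 9.16 CPM at 72 h, so in KO the 24 h library as a whole was within the counting interval of sham. The cell numbers of cluster 17 were 57 and 74 in sham, 149 and 121 at 24 h, and 71 and 56 at 72 h, of 222 to 2952 endothelial cells. Most endothelial cells in the sham and 24 h libraries were in cluster 0, led by Aqp1 and Timp4, and in KO ligation 72 h cluster 24 had the most. The level of the whole class thus rests on different clusters in different libraries.

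Within the angiogenic cluster Apln was higher after ligation by a smaller factor than in the whole class. Its level was 173 and 199 CPM in WT and KO sham, 474 and 358 CPM at 24 h, and 446 and 250 CPM at 72 h. That gave 2.74-fold in WT (2.07 to 3.69) and 1.80-fold in KO (1.41 to 2.31) at 24 h. Its ratio of 72 h to 24 h was 0.941 in WT (0.816 to 1.09) and 0.699 in KO (0.529 to 0.916), so the WT increase of the whole class at 72 h was not seen within the cluster. Cells of this cluster with an Apln UMI made up 24.6% and 33.8% in sham, 36.9% and 36.4% at 24 h, and 56.3% and 32.1% at 72 h. In cluster 0 Apln was 8.66 and 7.25 CPM in sham and 16.7 and 18.9 CPM at 24 h, 1.93-fold in WT (1.14 to 3.22) and 2.60-fold in KO (1.51 to 4.33). The arterial cluster 9, with 9 of 9 arterial markers, had 1 Apln UMI in all 6 libraries.

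The lower Aplnr level at 24 h was present both in cluster 0 and in the angiogenic cluster. In cluster 0 it was 215 and 175 CPM in sham, 64.9 and 78.1 CPM at 24 h, and 286 and 210 CPM at 72 h. The 24 h ratio there was 0.301 in WT (0.242 to 0.371) and 0.446 in KO (0.355 to 0.554). In the angiogenic cluster it was 200 and 158 CPM in sham, 27.2 and 66.4 CPM at 24 h, and 243 and 362 CPM at 72 h. The ratio of 72 h to 24 h in this cluster was 8.94 in WT (5.71 to 14.7) and 5.45 in KO (3.71 to 8.18). So at 24 h the angiogenic cluster was high in Apln and low in Aplnr, and at 72 h it was high in both. The arterial cluster had 40 and 55 Aplnr UMIs in sham and 0 to 2 in each ligation library, from 19 to 91 cells.

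Edn1 was distributed otherwise. In cluster 0 it was 18.1 and 59.2 CPM in WT and KO sham and 28.1 and 48.5 CPM at 24 h. At 72 h cluster 0 had 0 Edn1 UMIs in WT, from 82 cells, and 2 in KO, from 54 cells. The higher class level at 24 h therefore stands beside a change in which clusters make up the class. In the arterial cluster Edn1 was 70.9 and 201 CPM in WT and KO sham, 157 and 200.3 CPM at 24 h, and 118 and 106 CPM at 72 h. In the angiogenic cluster it was 54.6 and 296 CPM in sham, 327 and 315 CPM at 24 h, and 48.8 and 46.1 CPM at 72 h. There the 24 h to sham ratio was 5.99 in WT (3.72 to 10.3) and 1.06 in KO (0.850 to 1.33), and the 72 h to 24 h ratio was 0.149 in WT (0.106 to 0.205) and 0.146 in KO (0.0782 to 0.252). Between 24 h and 72 h the angiogenic cluster therefore had much less Edn1 while its Apln level was within 1.5-fold. The endocardial cluster 24, with 7 of 7 endocardial markers, had 75.6 and 201.5 CPM of Edn1 in sham and 259 and 179 CPM at 24 h, but 1 cell held 69.2% and 87.8% of the UMIs at 24 h. This cluster was also the highest of the 5 for Ece1 in every library, at 474 to 1966 CPM against 184 to 346 CPM in clusters 0, 9 and 17. Ednrb there was 120 to 490 CPM, and in the angiogenic cluster Ednrb was 2.24-fold higher at 24 h in WT (1.38 to 3.81) and 2.36-fold in KO (1.34 to 4.34).

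**Figure D3:**
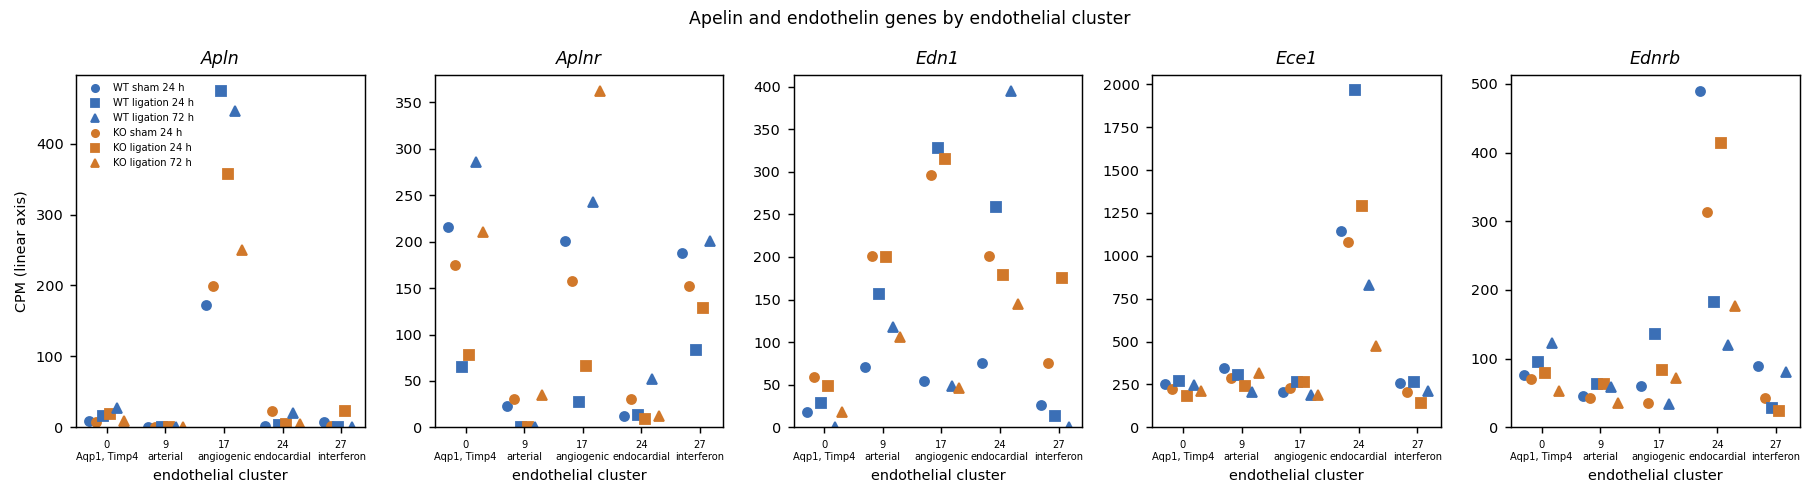
Level of 5 genes (CPM, linear axis) in endothelial clusters 0, 9, 17, 24 and 27; circles are sham, squares ligation 24 h and triangles ligation 72 h, blue WT and orange KO, for clusters with at least 15 cells in the library. Apln stands in cluster 17 (173 to 474 CPM), Ece1 in cluster 24, and in cluster 17 the 24 h squares are low for Aplnr.

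Of the endothelial ratios between genotypes, that of Edn1 in sham was the largest. KO sham was 2.82-fold above WT sham (2.48 to 3.21), at a percentile of 99.8 among the 10782 genes measured, and Edn1 was the only member past 2-fold in this comparison (0.427% of genes were at least 2-fold higher and 1.08% lower). The difference was seen in each of the 4 clusters given here, which come from the same 2 libraries and leave out the smaller clusters 27 and 35. It was 3.27-fold in cluster 0 (2.62 to 4.12), 2.83-fold in the arterial cluster (2.30 to 3.50), 5.43-fold in the angiogenic cluster (3.32 to 9.40) and 2.66-fold in the endocardial cluster (1.96 to 3.67). The share of endothelial cells with an Edn1 UMI was 6.78% in WT sham and 11.8% in KO sham, and 2.44% and 5.15% after thinning. Fibroblasts, with a far lower level, differed the same way, 5.85 against 11.6 CPM or 1.98-fold (1.14 to 3.54). In neutrophils, read as background with the limit on Edn1 given above, it was 2.32 CPM in WT sham and 1.29 CPM in KO sham.

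In ligated hearts the interval of this ratio included 1. At 24 h the KO to WT ratio of Edn1 was 1.01 (0.878 to 1.17) and at 72 h it was 0.782 (0.566 to 1.07); the change of the ratio between conditions was not tested. No member was past 2-fold between genotypes in endothelial cells at 24 h, where 1.25% of genes were higher and 1.11% lower. At that time Apln was 0.769-fold in KO (0.649 to 0.910; above WT, at 0.58 on the log2 scale, at resolution 0.5), Aplnr 1.39-fold (1.09 to 1.77) and Ece1 0.741-fold (0.676 to 0.812). At 72 h Apln was lower in KO, 0.385-fold (0.299 to 0.492), the only member past 2-fold in this class, where 2.48% of genes were higher and 1.3% lower. In monocytes and macrophages Apln was the other way, with 25 UMIs in WT and 45 in KO (0.877 and 4.37 CPM, 4.98-fold, 2.99 to 8.48), where 3.85% of genes were higher and 0.611% lower, and 1 cell held 57.8% of the KO UMIs. Over all libraries, 58 of that class's 82 Apln UMIs were in its cluster 19, which had 6 of 6 cycling markers. Within the angiogenic cluster the 72 h ratio was 0.561 (0.433 to 0.718), and among cells with both Pecam1 and Cdh5 it was -0.73 on the log2 scale against -1.38 in the class. The 72 h KO library was the shallowest and its endothelial class the richest in macrophage markers; without cells holding markers of other classes the log2 ratio was -1.20.

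**Figure D4:**
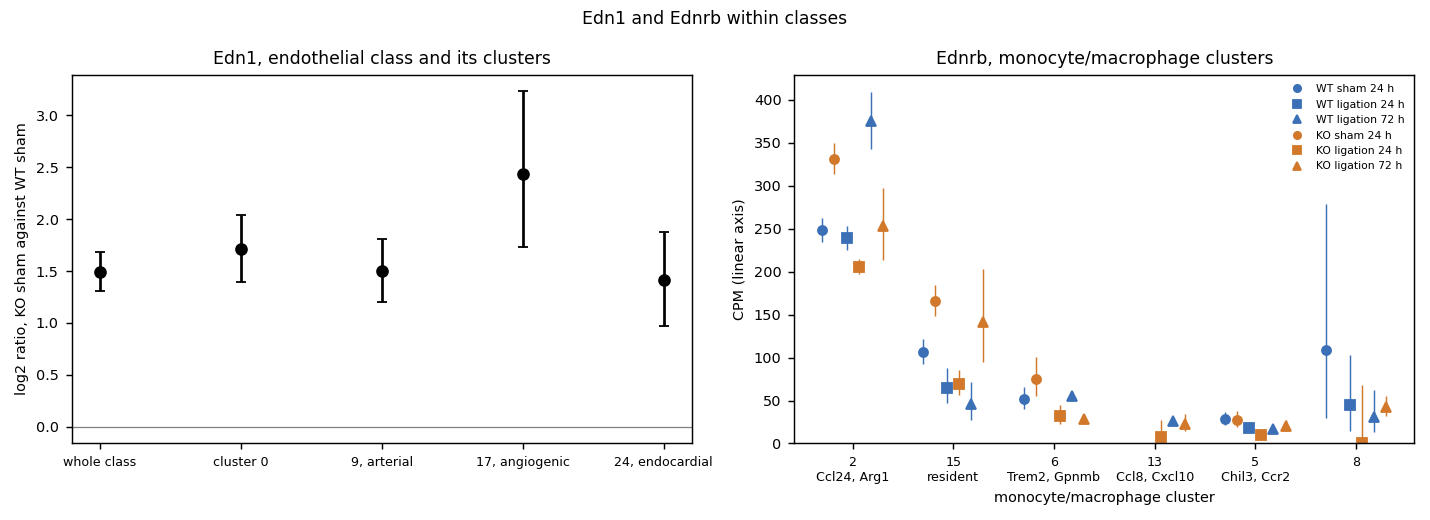
Left, log2 ratio of Edn1 in KO sham against WT sham in the endothelial class and in 4 of its clusters, with 95% counting intervals; all 5 lie above 0. Right, Ednrb level (CPM, linear axis, same intervals; circles sham, squares ligation 24 h, triangles ligation 72 h, blue WT, orange KO; at least 15 cells) in 6 monocyte and macrophage clusters by library, in which cluster 2 stays between 206 and 375 CPM.

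Ednrb was higher in pericytes 24 h after ligation in both genotypes, while Ednra was not. Pericytes, which wrap capillaries, had 35 and 26 Ednrb UMIs in WT and KO sham, 212 and 257 at 24 h, and 48 and 96 at 72 h. The levels were 116 and 77.7 CPM in sham, 756 and 890 CPM at 24 h, and 149 and 185 CPM at 72 h. Both 24 h libraries stood far above the other 4. The 24 h to sham ratio was 6.52 in WT (4.54 to 9.61) and 11.5 in KO (7.64 to 17.9), and Ednrb was the only one of the 2 members measured that passed 2-fold (6.64% of genes higher and 4.2% lower in WT, 4.09% and 2.75% in KO). The share of pericytes with an Ednrb UMI was 25.6% and 11.8% in sham and 37.7% and 40.2% at 24 h, a smaller ratio than that of the level. In KO sham 1 cell held 38.5% of the UMIs.

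Ednra in pericytes was 255 and 317 CPM in sham, 278 and 225 CPM at 24 h, and 143 and 90.8 CPM at 72 h, from 46 to 106 UMIs per library. Its 24 h to sham ratio was 1.09 in WT (0.786 to 1.51) and 0.710 in KO (0.513 to 0.977). In KO from 24 h to 72 h both receptor genes were past 2-fold lower, Ednra at 0.403 (0.271 to 0.596) and Ednrb at 0.208 (0.163 to 0.264), where 17.7% of genes were lower and 10.0% higher. These 72 h values rest on a different cluster: most KO 72 h pericytes were in cluster 25, of which 362 of 390 cells came from that library at a median of 918 UMIs, while the other libraries' pericytes were mostly in cluster 26. In cluster 26 alone, with 22 to 85 cells per library, Ednrb was 120, 41.3, 855, 931, 150 and 292 CPM in WT sham, KO sham, WT 24 h, KO 24 h, WT 72 h and KO 72 h. Ednra there was 272, 368, 359, 228, 147 and 292 CPM in the same order. Macrophage markers in the class summed to 11173 CPM in KO 72 h and 40.4 to 3322 CPM elsewhere, and erythroid markers to 21493 CPM in WT sham and 5467 CPM in KO 72 h against 0 to 41.9 CPM elsewhere. With only 40 to 93 pericytes in 5 libraries, these values hold for few cells.

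Smooth muscle cells showed the same split with still fewer cells. Ednra was 160 and 145 CPM in sham, 123 and 151 CPM at 24 h, and 173 and 134 CPM at 72 h, within 1.5-fold across libraries. Ednrb had 12 and 6 UMIs in sham and 57 and 29 at 24 h, or 10.9 and 4.43 CPM against 128 and 87.8 CPM. The WT ratio was 11.8 (6.24 to 24.1), past 2-fold where 3.49% of genes were higher and 3.08% lower, but 1 cell held 66.7% of the WT 24 h UMIs.

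**Figure D5:**
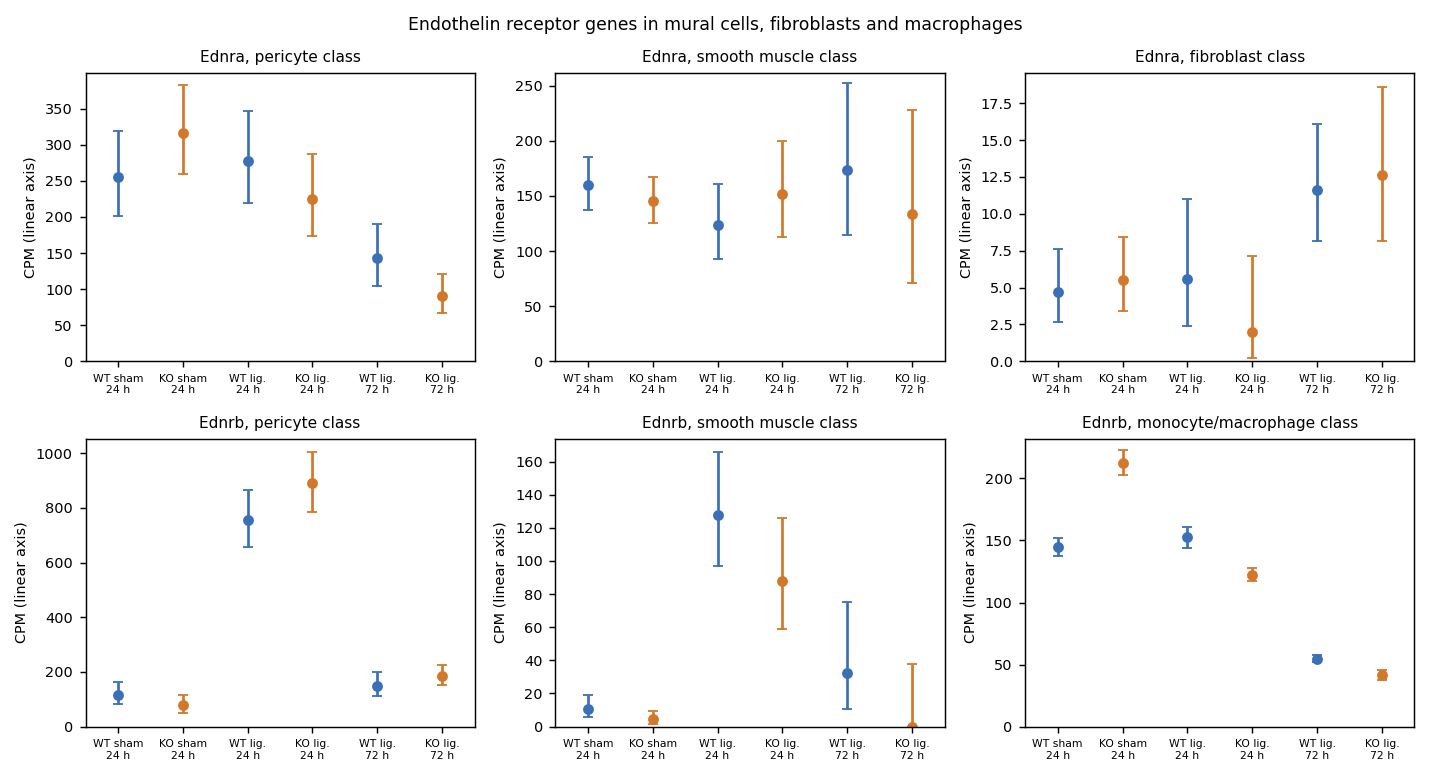
Level of the endothelin receptor genes (CPM, linear axis) by library with exact 95% counting intervals, blue WT and orange KO: Ednra in pericytes, smooth muscle cells and fibroblasts (top) and Ednrb in pericytes, smooth muscle cells and monocytes or macrophages (bottom). Pericyte Ednrb stands apart in both 24 h ligation libraries (756 and 890 CPM), and pericyte Ednra does not.

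Monocytes and macrophages carried the largest number of Ednrb UMIs, 428 to 2174 per library. The class level was 145 and 213 CPM in WT and KO sham, 152 and 122 CPM at 24 h, and 54.7 and 41.6 CPM at 72 h, so both 72 h libraries were the lowest. From 24 h to 72 h the ratio was 0.359 in WT (0.333 to 0.387) and 0.339 in KO (0.305 to 0.377), past 2-fold in comparisons where 7.0% and 2.8% of genes were at least 2-fold lower and 11.8% and 9.62% higher. Aplnr was past 2-fold higher in the same comparisons, with 116 and 82 UMIs at 72 h against 1 and 0 at 24 h, and endothelial markers in the class summed to 262 and 548 CPM at 72 h against 96.3 and 34.5 CPM at 24 h. Over all libraries, 161 of the class's 248 Aplnr UMIs were in the cycling cluster 19. That cluster had 191 and 264 cells in WT and KO at 72 h and 0 and 2 at 24 h. Thinned to 1000 UMIs per cell, the share of cells with an Ednrb UMI was 10.8% and 16.8% in sham, 11.2% and 7.56% at 24 h, and 5.01% and 4.06% at 72 h.

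Within single macrophage clusters the picture was another one. In cluster 2, led by Ccl24 and Arg1, Ednrb was 248 and 331 CPM in sham, 239 and 206 CPM at 24 h, and 375 and 253 CPM at 72 h. There the 72 h level was above the 24 h level, at 1.57-fold in WT (1.41 to 1.74) and 1.23-fold in KO (1.03 to 1.45). Cluster 2 had the most cells of the class in sham and at 24 h, and at 72 h most cells were in clusters 6 and 13 in WT and clusters 8 and 6 in KO. Cluster 6, led by Trem2 and Gpnmb, had 55.2 and 28.4 CPM at 72 h, cluster 13, with Cxcl10 among its leading genes, 26.6 and 22.9 CPM, and cluster 8, of which 1225 of 1343 cells came from KO 72 h, 42.7 CPM in that library. The lower level of the whole class at 72 h therefore stands beside a change in which clusters make it up. The resident macrophage cluster 15 had 107 and 165 CPM in sham, 64.9 and 69.5 CPM at 24 h, and 45.4 and 141 CPM at 72 h.

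In sham hearts macrophage Ednrb was 1.47-fold higher in KO (1.37 to 1.58), with 1.33-fold in cluster 2 (1.23 to 1.44) and 1.55-fold in cluster 15 (1.30 to 1.85). At 24 h the KO level was 0.803-fold (0.749 to 0.861) and at 72 h 0.759-fold (0.681 to 0.845). Pooled over the 6 libraries, the highest Ednrb level of the 36 clusters was in unnamed cluster 34, led by Serpinb2, Saa3 and Alox15, at 706 CPM pooled and 446 to 881 CPM by library, from 4 to 21 cells each.

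Ece1 in fibroblasts was lower at 72 h. It was 104 and 126 CPM in sham, 166 and 141 CPM at 24 h, and 40.4 and 35.3 CPM at 72 h, and both 72 h libraries lay below the other 4. The 72 h to 24 h ratio was 0.244 in WT (0.195 to 0.304) and 0.251 in KO (0.186 to 0.336), in comparisons where 21.4% and 13.2% of genes were at least 2-fold lower and 8.78% and 7.38% higher. Here too the clusters differed. The adventitial cluster 12 had 112 and 131 CPM in sham, 179 and 147 CPM at 24 h, and 136 and 130 CPM at 72 h, while the activated cluster 11, with 93 and 847 cells at 72 h and 1 to 4 in each other library, had 28.1 and 26.2 CPM. Fibroblast Ednra was 4.68 to 5.58 CPM in 3 of the sham and 24 h libraries, 1.97 CPM in KO 24 h, and 11.6 and 12.6 CPM at 72 h, with a WT ratio of 72 h to sham of 2.49 (1.35 to 4.80) where 8.53% of genes were higher and 23.2% lower.

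Of the wider pathway, 42 genes for other peptides, processing enzymes, G proteins, regulators and targets were followed. The remaining ligand genes were nearly absent: in all deposited cells Apela and Edn2 had 0 UMIs, which allows up to 3, and Edn3 had 1. Mme, which encodes the peptide-degrading enzyme neprilysin, was at 6.79 to 55.0 CPM in fibroblasts. Rgs4, a brake on Gq signaling, was 126 to 574 CPM in pericytes and 455 to 636 CPM in smooth muscle cells.

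Between genotypes none of the 31 pathway genes measured in sham endothelium was past 2-fold (median log2 ratio -0.08, all genes -0.06), nor any of 28 at 24 h (-0.18, all genes -0.05). At 24 h against sham, 2 of 30 were past 2-fold higher in WT endothelium and 0 lower (median 0.16, all genes 0.03), and 1 of 31 was higher in KO (-0.02, all genes 0.03). Of all genes 3.62% were higher in WT and 3.72% in KO, so these counts lie near the background. Rgs16, which shortens G protein signals, was the KO gene and 1 of the WT genes, at 7.80 CPM in WT sham and 27.4 CPM at 24 h (3.51-fold, 2.51 to 4.91), and the other WT gene, Vegfa, was at 14.5 CPM and is named after its values were seen. From 24 h to 72 h in WT endothelium 6 of 28 were lower and 1 higher (median -0.42, all genes -0.12, of which 7.52% were lower and 3.45% higher). The lower ones included the flow-responsive transcription factor genes Klf2 (1722 to 752 CPM) and Klf4 (390 to 121 CPM) and the hypoxia-responsive Epas1 (648 to 269 CPM). In KO 2 of 28 were lower, Epas1 and Plcb4, and 2 higher, Arrb1 and Rgs2 (median -0.02, all genes -0.07, of which 5.28% were lower and 3.55% higher). The endothelial cluster 0 had 320 and 376 cells in WT and KO at 24 h and 82 and 54 at 72 h. Whether these endothelial genes differed within a cluster was not tested. In WT fibroblasts 13 of 26 were lower from 24 h to 72 h and 2 higher (median -0.96, all genes -0.26, of which 21.4% were lower and 8.78% higher), among them Pcsk6 (314 to 52.1 CPM), Ace (193 to 39.8 CPM) and Mme (37.6 to 6.79 CPM). In KO fibroblasts 10 of 26 were lower and 2 higher (median -0.49, all genes -0.16, of which 13.2% were lower and 7.38% higher), again with Pcsk6 (271.5 to 76.7 CPM), Ace (219 to 43.9 CPM) and Mme (38.4 to 10.1 CPM). The adventitial cluster 12 had 112 and 97 cells in WT and KO at 24 h and 38 and 27 at 72 h. The activated cluster 11 had 4 and 3 cells at 24 h and 93 and 847 at 72 h. Whether these genes were lower within a cluster was not tested. In WT monocytes and macrophages 8 of 28 were lower and 2 higher over the same interval (median -0.47, all genes 0.04, of which 7.0% were lower and 11.8% higher), with Hif1a, the hypoxia factor gene, at 610 and 191 CPM and its target Vegfa at 71.0 and 6.21 CPM. In KO 7 of 28 were higher and 0 lower (median 0.17, all genes 0.14, of which 2.8% were lower and 9.62% higher), including Rgs2 and Mef2c. The clusters that make up the macrophage class also differed between 24 h and 72 h, as given above.

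The genes whose pattern was most like each member were found by Pearson correlation of log2(CPM + 10) over 62 units, each a class in a library with at least 50 cells, in 14 classes. These units share libraries and depth, so the values are descriptions. Apln was closest to Tmem252 (0.93), Fam167b, Mall and Cda, and Aplnr to AU021092 (0.94), Clec1a, Fam181b and Tmem88. Edn1 was closest to Sncaip (0.90), She, Smad6 and Mall, and Ece1 to Jup (0.91), Aplp2, Calcrl and Eng. Ednra followed the pericyte gene Cspg4 (0.99), then Klhl23, Notch3 and Rgs4. Ednrb had the weakest nearest match, Stard8 (0.79), then Nostrin, Stc1 and Fabp5. Among the members, Apln and Edn1 gave 0.82, Apln and Aplnr 0.81, and Ednra and Ednrb 0.46.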

How the data were processed

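The 6 deposited 10x matrices of raw UMI counts per gene and cell were used, made with Cell Ranger 6.0.0 on mm10 per the submitters' processing notes; how the authors filtered cells is not given in the sources used here. Each library is 1 group. Cells with at least 200 genes and at most 20% mitochondrial UMIs were kept. The doublet caller's automatic threshold marked few cells, so the highest Scrublet scores were removed at 0.8% per 1000 cells. Counts scaled to 10000 per cell, 2000 variable genes (without the 6 members, Trpm4, mitochondrial, ribosomal and hemoglobin genes) and 30 components gave Leiden clusters at resolution 1 (scanpy 1.11.5, leidenalg 0.10.2). A cluster was named with at least 3 markers of a class. UMIs were summed per class and library; CPM intervals are exact Poisson, ratio intervals exact conditional, and shares of cells are given as percent (scipy 1.17.1). A ratio was measured with at least 50 UMIs over the pair and 100 cells in each library (50 for mural cells, set after seeing the cell counts); 2-fold was the call, with no test. The ratio script was tested on simulated data. Named pathway genes are the up to 8 with the largest ratio past 2-fold and at least 20 CPM in the higher library, of which some are printed; likeness used genes with at least 50 CPM in 1 unit and a pseudocount of 10. RefSeq windows matched 5 of 6 members. Members and lists were chosen with earlier results of these data known. Libraries held 3625 to 7286 cells, and their UMI totals set the counting error. Alternatives tried are listed in the closing section.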

Additional observations from a re-analysis of the deposited data

Results flagged for a closer look

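Several ratios pointed in opposite directions with counting intervals that leave out 0 on both sides; none of these differences between ratios was tested, and each side is 1 library against 1 library. Endothelial Aplnr had a log2 ratio of KO to WT of -0.13 (-0.24 to -0.03) in sham and 0.47 (0.12 to 0.82) at ligation 24 h. Endothelial Ednrb had -0.44 (-0.57 to -0.31) in sham and 0.64 (0.19 to 1.09) at ligation 72 h, but the 72 h ratio was -0.87 with cells thinned to 1000 UMIs, -0.35 as a mean over cells and -0.016 at resolution 0.5, the same sign as sham. The Aplnr ratio in sham was 0.019 with at most 10% mitochondrial UMIs.

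Ednrb in monocytes and macrophages was higher in KO in sham, at 0.56 (0.46 to 0.66), and lower in KO at 24 h, at -0.32 (-0.42 to -0.22), and at 72 h, at -0.40 (-0.56 to -0.24). Ece1 in the same class, at 14.1 to 24.8 CPM, showed the same order between sham and 24 h, with KO to WT ratios of 0.72 (0.41 to 1.03) in sham, -0.60 (-0.88 to -0.31) at 24 h and 0.45 (0.21 to 0.69) at 72 h. With cells thinned to 1000 UMIs the Ece1 ratio in sham was -0.22, the same sign as at 24 h. Its log2 ratio of 24 h to sham was 0.50 (0.19 to 0.82) in WT and -0.82 (-1.09 to -0.54) in KO, and that of 72 h to 24 h was -0.50 (-0.76 to -0.24) in WT and 0.55 (0.28 to 0.82) in KO. These Ece1 and Ednrb values share their libraries. Endothelial markers in the class summed to 903 CPM in KO sham against 34.5 to 548 CPM elsewhere. Without cells holding markers of other classes the KO to WT ratio in sham was 0.67 for Ednrb and 0.33 for Ece1, and at 24 h it was -0.016 for Ednrb and -1.26 for Ece1.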

How the results depend on the processing

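No paired analysis was possible because the groups compared share fewer than 2 replicate numbers, each being 1 library. Over 114 member ratios, 1399 alternative values were computed. Of these, 1121 stayed within the counting interval of the main value, 273 moved and 5 were counted apart as reversed. Of the 114 ratios, 35 were past 2-fold. A selection of 14 was followed as headline ratios, 13 of them past 2-fold. For those 13, 161 of 172 alternative values kept it, and the other ratios past 2-fold are not in that count. Endothelial Apln, KO to WT at 72 h, had values in 12 settings, against 14 for the other endothelial headline ratios. Values below are log2 ratios. Clustering at resolution 0.5 and keeping doublets placed 489 and 479 of the 528 angiogenic endothelial cells in the class named for hemoglobin genes. Endothelial Apln at 24 h against sham then was 0.33 and 0.39 in WT and 1.15 and 0.57 in KO, Edn1 was 1.36 and 1.35 in WT and 0.090 and 0.15 in KO, and Aplnr at 72 h against 24 h was 1.56 and 1.47 in WT and 0.26 and 0.38 in KO. Apln at 72 h against sham in KO reversed from 2.82 to -0.30 and -0.54. With the hemoglobin-led cluster added to the endothelial class, an alternative added after seeing the data, Apln was 3.25 in WT and 2.70 in KO. Keeping doublets gave 2.12 for KO pericyte Ednrb at 24 h against sham. Thinning to 1000 UMIs gave -1.87 for Apln KO to WT at 72 h, 1.79 for Aplnr 72 h to 24 h in WT, 0.94 for Edn1 24 h to sham in KO, and -1.14 and -0.97 for macrophage Ednrb at 72 h against 24 h in WT and KO. The Pecam1 and Cdh5 gate, also added later, gave -0.73 for Apln KO to WT at 72 h. Leaving out cells with markers of other classes gave 4.08 for Apln and 1.54 for Edn1 at 24 h in WT, 2.51 for Aplnr 72 h to 24 h in KO, -0.92 and -1.17 for macrophage Ednrb, and 5.31 for KO pericyte Ednrb. At most 10% mitochondrial UMIs gave 1.73 for Edn1 in WT and 2.15 for Aplnr 72 h to 24 h in KO. Means over cells gave 1.78 for Edn1 in WT, 2.99 for Apln in KO, 0.82 for Aplnr 72 h to 24 h in KO, and -0.92 and -0.90 for macrophage Ednrb. All deposited cells gave -1.40 for KO macrophage Ednrb and 1.99 for KO pericyte Ednrb, and turned dendritic Ednrb, KO to WT at 72 h, from 1.49 to -0.034. Leaving out clusters mostly of 1 library, also added later, gave 4.49 for KO pericyte Ednrb and turned fibroblast Ece1 at 72 h against sham in WT from -1.37 to 0.29 and KO pericyte Ednra at 72 h against 24 h from -1.31 to 0.36. Beyond the moved cells, the cause was not tested. With 1 pooled library per group, no difference can be set against the spread between mice, and the KO 72 h library, with the fewest UMIs per cell, limits its classes most.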
